A study of Mus musculus with 10 samples.

Results

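Heat shock proteins and DnaJ cochaperones were followed across 10 RNA-sequencing libraries of sorted mouse fetal oocytes, 5 Taf4b-heterozygous and 5 Taf4b-deficient. The set holds the protein-coding genes whose symbol begins with Hsp or with Dnaja, Dnajb or Dnajc, apart from Hspg2, which encodes a matrix proteoglycan, and Hspbap1. It came to 74 of the 55536 genes in the count table. By family these were 3 HSP90 genes, 11 HSP70 genes, 4 genes of the HSP110 type or other HSP70 nucleotide exchange factors, 3 chaperonin genes, 8 genes named as small heat shock proteins, and 4 DNAJA, 13 DNAJB and 28 DNAJC genes. The members were chosen by name, not by their values. Of the 74, 66 passed the filter on low counts and were tested beside 19244 genes in all.

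Molecular chaperones bind unfolded or partly folded proteins and keep them from aggregating until they fold, assemble, cross a membrane or are degraded. HSP70 proteins hold and release their clients in an ATP cycle: J-domain proteins, the DnaJ family, deliver the client and trigger ATP hydrolysis, and nucleotide exchange factors reset the cycle. HSP90 acts later on signalling proteins such as kinases and steroid receptors, the HSP60 chaperonin encloses proteins in the mitochondrion, and separate HSP70 and HSP90 proteins serve the endoplasmic reticulum (ER). In germ cells some members are made in forms or amounts particular to meiosis and gamete formation, Hspa2 in the testis being the best known.

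The oocytes came from embryos at E16.5, when fetal mouse oocytes are in meiotic prophase. Parents were homozygous for an Oct4-EGFP transgene, whose green fluorescence marks germ cells, and heterozygous for the Taf4b mutation, so the libraries of both genotypes carry the transgene, and heterozygous libraries take the place of wild type. Gonads were digested with trypsin, dead cells were removed with propidium iodide, and GFP-positive cells were sorted, per the labels' protocols. TAF4b is a TFIID subunit enriched in the gonads, TFIID being the factor that binds core promoters, and the design compares the transcripts of oocytes with a working copy and without one. Whether each library is its own embryo is not stated in the labels, and the p-values therefore rest on the spread between libraries, some of which may be technical.

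Total counts ran from 16707216 to 26983565 per library, and the members took 1.53% to 1.88% of them. Taf4b itself was at 58.2 to 81.7 CPM (counts-per-million) in deficient libraries and at 271, 290.2, 142 and 101 CPM in heterozygous 1, 2, 3 and 5. The library labelled heterozygous 4, at 65.7 CPM, lay within the deficient range and is cited by its label. The 13 oocyte and germ cell genes listed summed to 5663 to 8044 CPM in heterozygous and 5073 to 7564 CPM in deficient libraries, but not all were high. The germ cell helicase Ddx4 was at 571 to 875 and 388 to 661 CPM, whereas the oocyte transcription factors Sohlh1, at 0.192 to 231 and 0.419 to 1.58 CPM, and Nobox, at 10.1 to 166 and 3.48 to 7.25 CPM, were low in most libraries. The 13 erythroid markers found summed to 69.2 to 2091 CPM in heterozygous and 113 to 1612 CPM in deficient libraries, 1 of them being at 0 in all libraries. Summed levels in heterozygous and deficient libraries were 37.8 to 102 and 35.3 to 128 CPM for 10 pregranulosa markers, 16.3 to 68.3 and 17.8 to 104 CPM for 9 stromal markers, 23.7 to 122 and 19.9 to 97.3 CPM for 9 endothelial markers, and 169 to 287 and 79.9 to 240.4 CPM for 9 macrophage markers. The labels give 3 litter dates. The authors' deposited fold changes were rebuilt with a grouping of the libraries in 3 levels that matched those dates in 6 of 10 libraries, and in 10 of 10 when each library was given the date of the same-numbered library of the other genotype. Its level 1 holds heterozygous 1 and deficient 1 and 2, its level 2 heterozygous 2 and 3 and deficient 3 and 4, and its level 3 the library labelled heterozygous 4, heterozygous 5 and deficient 5.

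The most abundant members per unit length were the ER chaperone Hspa5 and the cytosolic Hsp90aa1, Hsp90ab1 and Hspa8. The level here is the count per exon base, scaled to the same total in every library, and it can be compared between genes. Hspa5 (BiP, ENSMUSG00000026864, chromosome 2, 34771970 to 34777547, plus strand, GRCm38) averaged 1944 on this scale, from 1468 to 3860.1 over the 10 libraries. Hsp90aa1, the stress-inducible cytosolic HSP90, averaged 1747, its constitutive partner Hsp90ab1 1247, the constitutive cytosolic HSP70 gene Hspa8 997, the ER HSP90 gene Hsp90b1 874 and mitochondrial Hspd1 822. The ranges over libraries of these neighbours overlapped, so their order was not fixed from library to library. Behind them came the J-domain proteins Dnajb11 of the ER, at 518, and Dnaja2 of the cytosol, at 453. The inducible HSP70 genes were far lower, Hspa1b at 27.4 and Hspa1a at 10.8, but these are near-identical copies whose reads can be assigned to either or to neither.

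**Figure D1:**
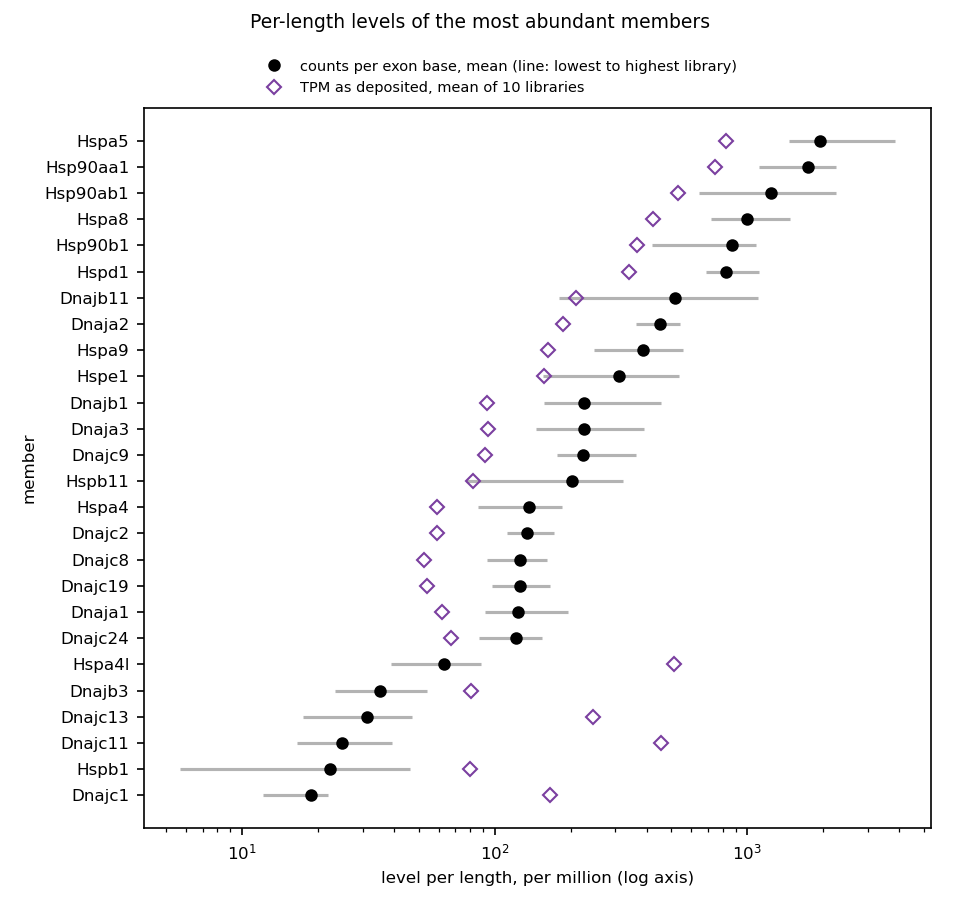
Levels per length (log axis) of the members within the 20 highest by either measure, as counts per exon base (dots, mean of 10 libraries, lines from the lowest to the highest library) and as deposited TPM (diamonds). Most diamonds lie to the left of their dot, and those of Hspa4l, Dnajc13, Dnajc11, Hspb1 and Dnajc1 lie far to the right.

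The deposited TPM (transcripts-per-million, a level per length) gave another order for a few members. The ratio of mean TPM to mean count per length had a median of 0.431 over the tested members and 0.432 over 19239 genes. It was above 3 in 6 members (9.09%, against 8.08% of all genes). Dnajc11, a mitochondrial protein bound to the complex that shapes the inner membrane, was 5th by TPM (456) and 44th by count per length (24.9), a ratio of 18.3. Dnajc1, an ER membrane J-domain protein, had a ratio of 8.82, the HSP110 gene Hspa4l of 8.19, the endosomal Dnajc13 of 7.85, Dnajb14 of 4.71 and Hspb1 of 3.58. For these 6, a rank among the members depends on which deposited table is read.

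Between genotypes, no member passed the test. Of 19244 genes, edgeR's quasi-likelihood test called 0 at an adjusted p under 0.05 (0.0%), and 0 of the 66 tested members were among the calls. At an unadjusted p under 0.05 stood 8 members, 12.1% of those tested, against 16.6% of all genes (3190). Of these, 4 were higher in deficient libraries (6.06%, against 7.45% of all genes) and 4 lower (6.06%, against 9.13%). The median log2 fold change, deficient over heterozygous, was -0.11 over the members, with 23 positive and 43 negative, and -0.02 over all genes. DESeq2 called 643 genes (3.02%) and 1 member, Dnaja4, and limma voom with quality weights called 510 genes (2.65%) and 3 members, Dnaja4, Dnajc21 and Hspb11. Without heterozygous 1 edgeR called 606 genes (3.07%) and 2 members, Dnaja4 and Dnajc21. In sorted cells, a lower count cannot tell fewer cells that make a transcript from less transcript per cell.

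**Figure D2:**
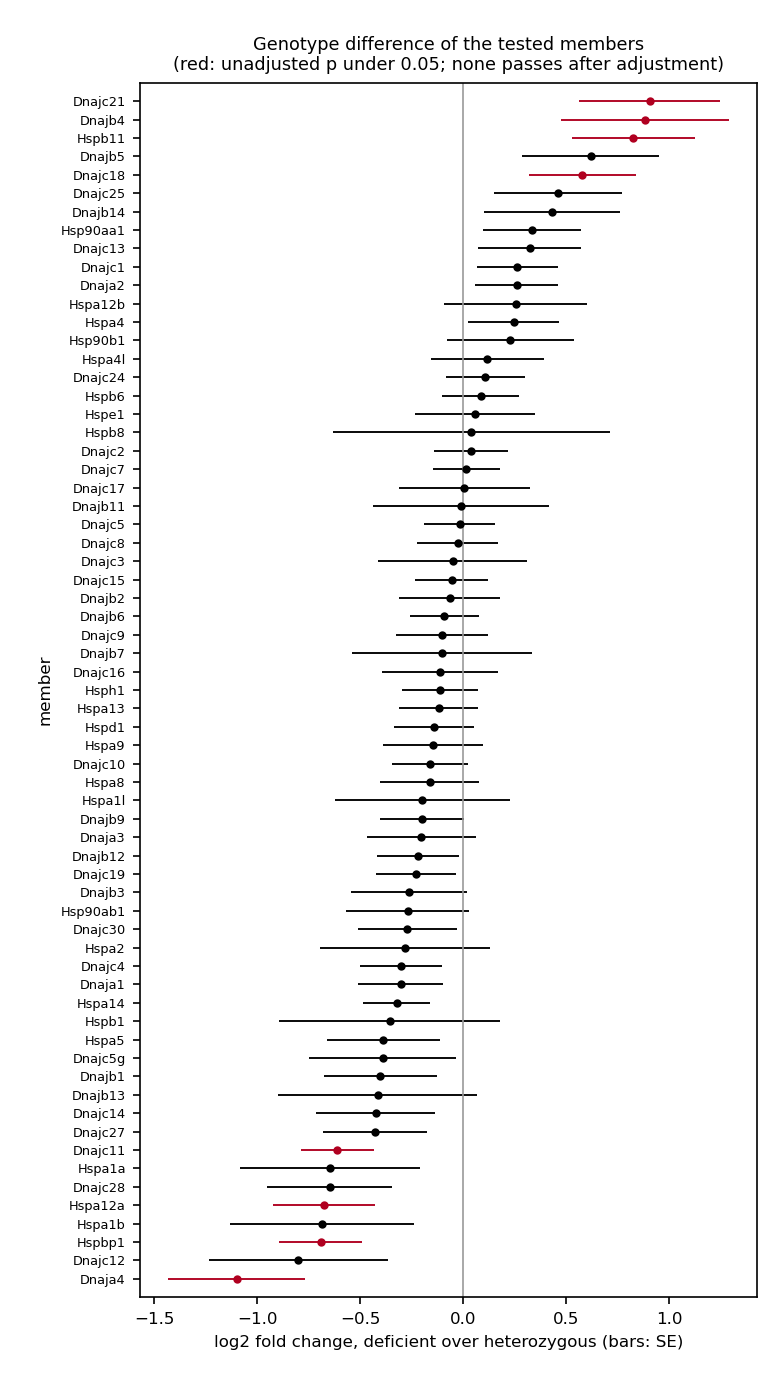
Log2 fold change of deficient over heterozygous libraries (horizontal axis) for 65 of the 66 tested members, with its SE as a bar. The 8 members in red have an unadjusted p under 0.05, 4 on each side of 0, and none passed after adjustment.

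The lower members with the clearest separation were Dnajc11, Hspbp1 and Hspa12a. Dnajc11 (ENSMUSG00000039768, chromosome 4, 151933691 to 151982137, plus strand) was at 89.1, 101, 152, 115 and 107 CPM in heterozygous 1 to 5 and at 75.2, 65.8, 83.9, 71.8 and 72.6 CPM in deficient 1 to 5. All deficient libraries lay below all heterozygous ones, and heterozygous 3 was the highest. The group means were 113 ± 23.9 CPM (SD, n = 5) and 73.8 ± 6.59 CPM (SD, n = 5), with a log2 fold change of -0.61 ± 0.18 (SE) (adjusted p 0.155 by edgeR). In date order the log2 differences within litter dates were -0.34, -0.83 and -0.57, each from 1 or 2 libraries per genotype. Within levels 1 to 3 of the rebuilt grouping they were -0.34, -0.68 and -0.61.

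Hspbp1 (ENSMUSG00000063802, chromosome 7, 4660521 to 4685068, minus strand) encodes a nucleotide exchange factor of cytosolic HSP70. It was at 37.8, 44.1, 78.1, 47.4 and 51.02 CPM in heterozygous 1 to 5 and at 32.1, 30.4, 34.8, 29.97 and 32.7 CPM in deficient 1 to 5. The deficient libraries lay within a narrow band beneath every heterozygous library, and heterozygous 3 again stood highest. Means were 51.7 ± 15.6 CPM (SD, n = 5) and 31.98 ± 1.92 CPM (SD, n = 5), with a log2 fold change of -0.69 ± 0.20 (SE) (adjusted p 0.156 by edgeR). Within litter dates the log2 differences were -0.35, -0.90 and -0.70, and within the rebuilt levels -0.27, -0.86 and -0.59. The difference was thus negative in each date and each level.

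Hspa12a, a distant relative of HSP70, was low in all libraries, at 4.79, 4.04, 6.44, 4.54 and 4.21 CPM in heterozygous 1 to 5 and at 3.07, 3.496, 3.304, 2.53 and 2.64 CPM in deficient 1 to 5. The genotypes did not overlap. The log2 fold change was -0.68 ± 0.25 (SE) (adjusted p 0.211 by edgeR). Hspa14, an HSP70-like protein that works at the ribosome with Dnajc2, did not overlap either, at 80.8, 69.4, 103, 77.1 and 71.3 CPM in heterozygous 1 to 5 and at 69.4, 64.5, 57.6, 63.95 and 65.9 CPM in deficient 1 to 5. That was close to a tie, with heterozygous 2 at 69.399 CPM and deficient 1 at 69.355 CPM. Its log2 fold change was -0.32 ± 0.16 (SE), with an unadjusted p of 0.0687 and an adjusted p of 0.334 by edgeR. Members whose genotypes did not overlap numbered 4, all lower in deficient libraries, which is 6.06% of those tested against 1.6% of all genes in that direction and 3.53% in both directions. None of the members lay higher in all deficient libraries (1.94% of all genes did).

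Dnaja4 (ENSMUSG00000032285, chromosome 9, 54698873 to 54716315, plus strand), a cytosolic J-domain protein of the DNAJA type, had the largest negative fold change. It was at 13.8, 48.9, 43.6, 29.00 and 41.4 CPM in heterozygous 1 to 5 and at 10.8, 15.9, 18.5, 12.01 and 25.2 CPM in deficient 1 to 5. Heterozygous 1 was as low as the deficient libraries, while the other heterozygous libraries lay above all of them. The log2 fold change was -1.10 ± 0.33 (SE) (adjusted p 0.162 by edgeR), and without heterozygous 1 it was -1.30, with an adjusted p of 0.0363. Within litter dates the differences were -1.25, -1.05 and -1.25, and within rebuilt levels -0.07, -1.63 and -0.46, so level 1 showed almost none. Of its exon bases, 44.1% overlap Wdr61 on the opposite strand, and no source used here gives the strand setting of the counting, so reads of these genes may have been mixed.

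**Figure D3:**
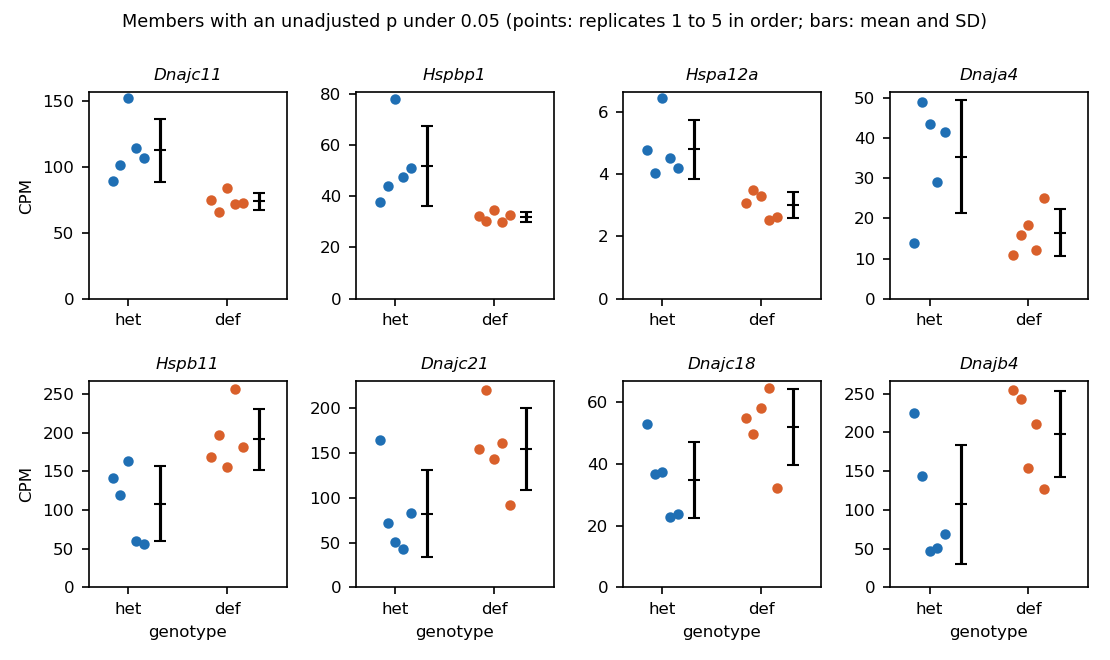
CPM in each library (points, replicates 1 to 5 in order) of the 8 members with an unadjusted p under 0.05, with the mean and SD of each genotype as bars. Dnajc11, Hspbp1 and Hspa12a show no overlap between genotypes, while the other 5 overlap.

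Of the members higher in deficient libraries, Hspb11 (ENSMUSG00000063172, chromosome 4, 107253593 to 107279938, plus strand) is a small heat shock protein by name but is known as IFT25, a part of the intraflagellar transport machinery of cilia. It was at 142, 119.7, 163, 60.03 and 56.2 CPM in heterozygous 1 to 5 and at 168, 197, 155, 256 and 181 CPM in deficient 1 to 5. The library labelled heterozygous 4 and heterozygous 5 were the lowest, and heterozygous 3 lay within the deficient range. Means were 108 ± 48.1 CPM (SD, n = 5) and 192 ± 39.4 CPM (SD, n = 5), with a log2 fold change of 0.83 ± 0.30 (SE) (adjusted p 0.207 by edgeR). Within the rebuilt levels the differences were 0.36, 0.51 and 1.64, so the widest gap was in level 3. Within litter dates they were 0.37, 0.82 and 1.94.

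Dnajc21 (ENSMUSG00000044224, chromosome 15, 10446756 to 10470516, minus strand), which acts in the last steps of large ribosomal subunit maturation, was at 165, 71.8, 50.8, 42.6 and 82.9 CPM in heterozygous 1 to 5 and at 155, 221, 143, 161 and 92.1 CPM in deficient 1 to 5. Heterozygous 1 again lay with the deficient libraries. The log2 fold change was 0.90 ± 0.34 (SE) (adjusted p 0.225 by edgeR), and without heterozygous 1 it was 1.32, with an adjusted p of 0.0381. Differences within litter dates were 0.51, 1.93 and 0.56, and within rebuilt levels 0.17, 1.33 and 0.63. Dnajb4, a cytosolic cochaperone of the DNAJB type, was at 226, 144, 47.4, 50.5 and 69.2 CPM in heterozygous 1 to 5 and at 255, 243, 154, 210.5 and 127 CPM in deficient 1 to 5. It was lowest in heterozygous 3, the library labelled heterozygous 4 and heterozygous 5, and the fold change was 0.88 ± 0.41 (SE) (adjusted p 0.299 by edgeR). Dnajc18, a J-domain protein, was at 52.9, 36.6, 37.4, 22.8 and 23.7 CPM in heterozygous 1 to 5 and at 54.7, 49.7, 58.1, 64.5 and 32.2 CPM in deficient 1 to 5. Its fold change was 0.58 ± 0.26 (SE) (adjusted p 0.286 by edgeR), and deficient 5 lay among the heterozygous libraries. Within rebuilt levels 1 to 3, Dnajb4 differed by 0.14, 1.12 and 1.10, and Dnajc18 by -0.02, 0.72 and 0.47. Within litter dates the values were 0.50, 1.98 and 1.24 for Dnajb4 and 0.31, 0.87 and 0.94 for Dnajc18.

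Of the other members among the 12 smallest p-values, Dnajc28, Dnajb5 and Dnajc12 were of low level. Dnajc28 was at 3.16 to 8.84 CPM in heterozygous and 3.58 to 6.02 CPM in deficient libraries, with a log2 fold change of -0.65 ± 0.30 (SE) (adjusted p 0.304 by edgeR). Dnajb5, a cytosolic relative of Dnajb1, was at 0.778 to 1.39 and 1.17 to 2.46 CPM, and Dnajc12, a cochaperone of the aromatic amino acid hydroxylases, at 0.648 to 2.29 and 0.465 to 1.36 CPM. Their fold changes were 0.62 ± 0.33 (SE) and -0.80 ± 0.44 (SE). In all 3 the ranges of the genotypes overlapped.

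The authors' deposited table, made with DESeq2, called 4 members at an adjusted p under 0.05, of 65 that had one. That is 6.15% of them, against 6.55% of all 17881 genes with an adjusted p, and 1 of the 4 was higher (3.2% of all genes) and 3 were lower (3.36%). In the authors' deposited table Dnajc11 had a log2 change of -0.60 at an adjusted p of 0.0311, Hspbp1 -0.67 and 0.0385, Dnaja4 -0.87 and 0.0366, and Hspb11 0.79 and 0.0303. The authors' deposited table put Dnajc21 at 0.75, with an adjusted p of 0.0510, and Hspa12a at -0.75, with 0.0609. With the rebuilt grouping as a term, edgeR called 104 genes (0.54%) and 0 members. With it the adjusted p by edgeR was 0.0978 for Dnajc11, 0.113 for Hspbp1, 0.129 for Dnaja4 and 0.0874 for Hspb11.

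Among the abundant cytosolic chaperones, no genotype difference passed the test. Hsp90aa1 was at 2666, 1903, 1584, 1946 and 2714 CPM in heterozygous 1 to 5 and at 2791, 3091, 2107, 3363 and 2273 CPM in deficient 1 to 5. Heterozygous 1 and 5 lay among the deficient libraries, and the fold change was 0.33 ± 0.24 (SE) (adjusted p 0.488 by edgeR). Hsp90ab1 was at 1287, 999, 701, 1829 and 2353 CPM in heterozygous 1 to 5 and at 1318, 1243, 936, 1143 and 1311 CPM in deficient 1 to 5. Here the heterozygous libraries held both the lowest value (heterozygous 3) and the highest ones (the library labelled heterozygous 4 and heterozygous 5), with the deficient libraries between. The fold change was -0.27 ± 0.30 (SE) (adjusted p 0.675 by edgeR). By TPM, the ratio of Hsp90ab1 to Hsp90aa1 was 1.21 and 1.11 in the library labelled heterozygous 4 and heterozygous 5, and 0.436 to 0.741 in the other 8 libraries. So in those 2 libraries the constitutive form was the more abundant transcript per length, and in the others the inducible form was.

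Hspa8 was at 1267, 1529, 2301, 1426 and 1482 CPM in heterozygous 1 to 5 and at 1149.6, 1348, 1723, 1838 and 1088 CPM in deficient 1 to 5, with a fold change of -0.16 ± 0.24 (SE) and an adjusted p of 0.7604 by edgeR. The highest library was heterozygous 3. Dnaja2, which works with Hspa8, was at 340.1 to 567 CPM in heterozygous and 404 to 612 CPM in deficient libraries, with a fold change of 0.26 ± 0.20 (SE). The HSP110 gene Hsph1 was at 129 to 152 and 84.2 to 155 CPM, with a fold change of -0.11 ± 0.18 (SE). Both pairs of ranges overlapped, and the adjusted p was 0.536 and 0.7905 by edgeR.

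The 6 stress-inducible cytosolic members did not move as a block from library to library. These are Hspa1a, Hspa1b, Dnajb1, Hsph1, Hsp90aa1 and Hspb1, targets of the heat shock factor HSF1. The inducible HSP70 gene Hspa1b was at 49.4, 19.99, 5.49, 53.5 and 37.2 CPM in heterozygous 1 to 5 and at 22.1, 19.2, 23.8, 13.00 and 24.8 CPM in deficient 1 to 5. Its copy Hspa1a was at 19.98, 11.02, 2.33, 21.5 and 13.3 CPM in heterozygous 1 to 5 and at 6.97, 11.5, 9.17, 6.14 and 9.72 CPM in deficient 1 to 5. Both were lowest in heterozygous 3 and highest in the library labelled heterozygous 4, next to heterozygous 1. Dnajb1, their main cytosolic J-domain partner, was at 309, 225, 531, 216 and 187 CPM in heterozygous 1 to 5 and at 221, 211, 255, 246 and 177 CPM in deficient 1 to 5, and there heterozygous 3 was the highest library. Hspb1 (HSP25), a small heat shock protein that holds unfolded proteins without ATP, was at 12.2, 2.51, 2.12, 11.9 and 16.8 CPM in heterozygous 1 to 5 and at 5.11, 4.66, 6.56, 5.15 and 14.03 CPM in deficient 1 to 5. Its low libraries included heterozygous 2 and 3, and its high ones heterozygous 1 and the 3 libraries of rebuilt level 3.

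None of these 6 had an unadjusted p under 0.05 for genotype. The fold changes were -0.65 ± 0.44 (SE) for Hspa1a, -0.69 ± 0.45 (SE) for Hspa1b, -0.40 ± 0.27 (SE) for Dnajb1 and -0.36 ± 0.54 (SE) for Hspb1. Their adjusted p-values by edgeR were 0.467, 0.451, 0.468 and 0.768. Cell dissociation can itself induce heat shock and immediate early genes, and the latter were summed over 25 genes. They came to 841, 612, 652, 1136 and 1049 CPM in heterozygous 1 to 5 and to 654, 540.2, 831, 500.2 and 852 CPM in deficient 1 to 5. The part of this in the levels of the inducible members was not tested.

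**Figure D4:**
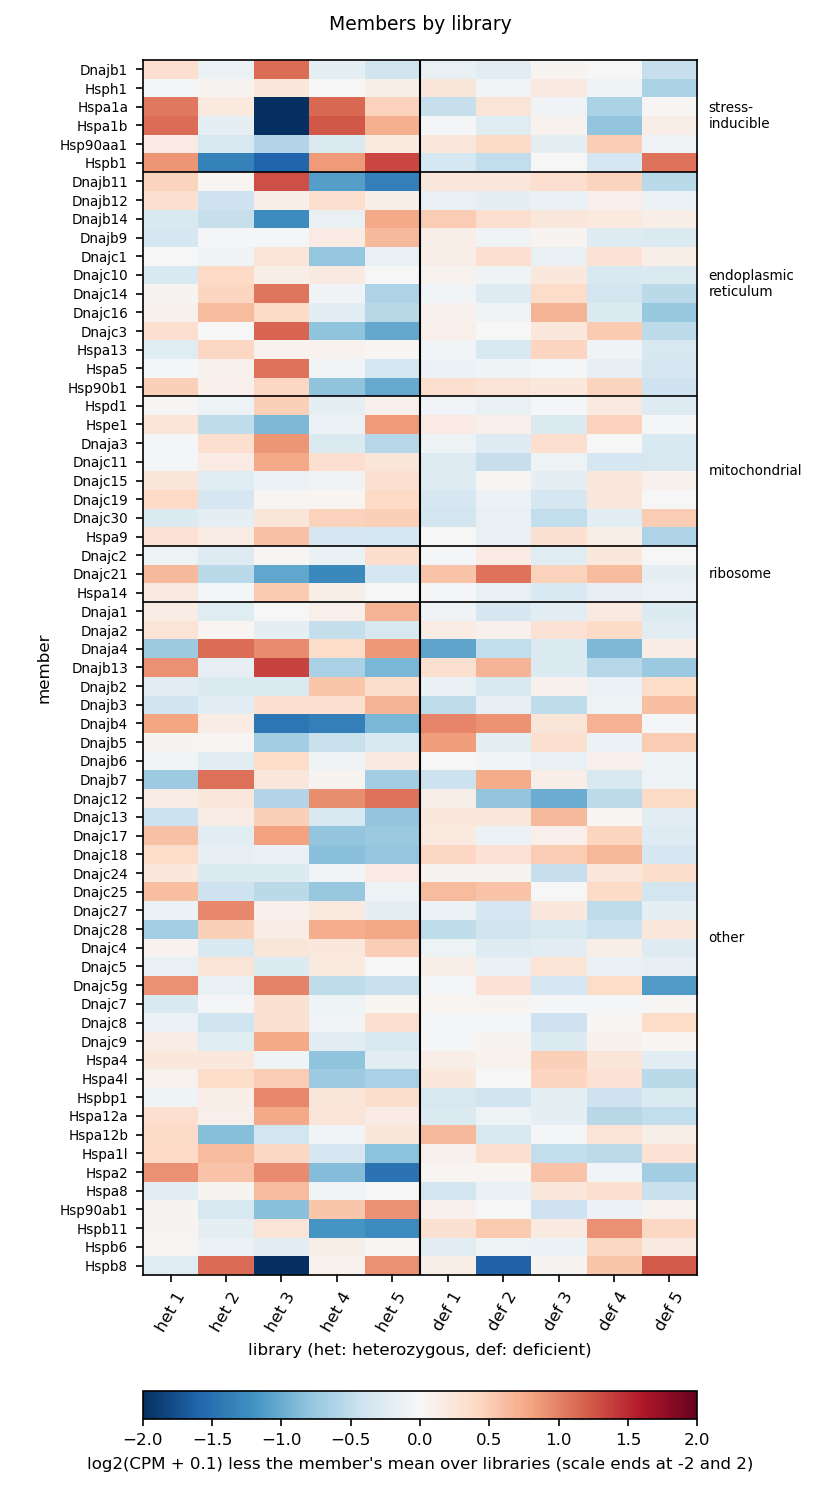
Log2(CPM + 0.1) of 65 of the 66 tested members, each less its own mean over the 10 libraries, in rows grouped by stress-inducible, ER, mitochondrial, ribosomal and other members, with heterozygous libraries left of the line and deficient ones right of it. Colours are stronger on the left, with heterozygous 3 dark blue for Hspa1a, Hspa1b and Hspb8 and red for Dnajb1, Dnajb11, Dnajc3 and Hspa5.

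Of the 12 ER members, 4 had their highest level in heterozygous 3 (33.3%, against 19% of all genes), and in 3 the libraries of rebuilt level 3 lay below all others (25%, against 11.7%). Promoters of 3 ER members held the ER stress response element, the sequence bound by ATF6 with NF-Y in the unfolded protein response. The element was searched as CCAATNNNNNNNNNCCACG on both strands of the 250 bases before each start in the RefSeq promoter table (GRCm38.p6), which covered 59 of the 74 members with 76 promoters. It was found in the promoters of Hspa5, Dnajc3 and Hsp90b1, 3 of 76, and in 0.113% of 32851 promoters. The matches are shown for members whose levels follow, with the element in capitals and each sequence read in the direction of its gene. Dnajb11, whose promoter was also searched, had no match. The part of the element in these levels was not tested. In Hspa5 the stretch is chr2:34772020-34772048 (plus strand), in Dnajc3 chr14:118937807-118937865 (plus strand) and in Hsp90b1 chr10:86705513-86705676 (minus strand), where the second match lies on the other strand. The stretch of Hspa5 lies before a RefSeq start but inside the gene span given above.
Hspa5: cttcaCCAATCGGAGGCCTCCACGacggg
Dnajc3: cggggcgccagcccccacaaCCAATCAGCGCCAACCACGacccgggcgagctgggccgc
Hsp90b1: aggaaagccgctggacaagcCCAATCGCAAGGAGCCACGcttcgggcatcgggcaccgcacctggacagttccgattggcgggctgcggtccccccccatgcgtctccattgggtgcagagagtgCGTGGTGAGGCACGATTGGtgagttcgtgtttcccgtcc

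Hspa5, the main HSP70 of the ER and a sensor partner in the unfolded protein response, was at 2711, 2957, 5912, 2689.6 and 2179 CPM in heterozygous 1 to 5 and at 2568, 2608, 2722, 2483 and 2195 CPM in deficient 1 to 5. Heterozygous 3 was far above the other 9 libraries, which lay close together. The fold change was -0.39 ± 0.28 (SE) (adjusted p 0.492 by edgeR). Dnajb11 (ERdj3), which brings clients to Hspa5, was at 719, 544, 1297, 245 and 205 CPM in heterozygous 1 to 5 and at 621, 618, 666, 722 and 365 CPM in deficient 1 to 5. It too was highest in heterozygous 3, and the libraries of rebuilt level 3 were the lowest. Dnajc3 (p58IPK), another ER partner of Hspa5, was at 246, 195, 434, 111 and 96.1 CPM in heterozygous 1 to 5 and at 209, 194, 226, 279 and 135 CPM in deficient 1 to 5. Its order was the same at both ends, with heterozygous 3 the highest and all libraries of level 3 the lowest.

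Hsp90b1 (GRP94, ENSMUSG00000020048, chromosome 10, 86690209 to 86705509, minus strand), the ER HSP90, which folds integrins and Toll-like receptors, was at 1658, 1273, 1581, 683 and 592 CPM in heterozygous 1 to 5 and at 1484, 1415, 1379, 1610.5 and 894 CPM in deficient 1 to 5. The libraries of level 3 lay beneath all others, but heterozygous 3 was not set apart. The fold change was 0.23 ± 0.31 (SE) (adjusted p 0.738 by edgeR). By rebuilt level the adjusted p of edgeR's F test was 0.0112 for Hsp90b1, 0.0106 for Dnajb11, 0.0127 for Dnajc3 and 0.251 for Hspa5. Deficient 5, the only deficient library of level 3, was the lowest of its genotype for all 4. Since it stands alone there, a level difference within the deficient libraries could not be read from it. For Hspa5 the libraries of level 3 did not all lie below the others.

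Only Dnajb11 and Dnajc3 had both features, the maximum in heterozygous 3 and all libraries of level 3 below the others. Hspa5 had only the first and Hsp90b1 only the second, and no other ER member had both. Dnajc14 was at 102 to 328 CPM in heterozygous and 107 to 201 CPM in deficient libraries, with its maximum in heterozygous 3. Dnajc16 was at 34.4 to 78.9 and 30.1 to 81.5 CPM, and Dnajc1 at 44.4 to 90.9 and 68.8 to 94.6 CPM. The reductase Dnajc10, which breaks disulfide bonds of misfolded proteins, was at 143 to 233 and 143 to 205 CPM. The stress-induced Dnajb9 was at 25.4 to 50.3 and 26.3 to 35.1 CPM, and here heterozygous 3, at 31.4 CPM, was not set apart and heterozygous 5 was the highest. Hspa13, an HSP70-like protein of the ER, was at 37.2 to 58.7 and 35.5 to 59.4 CPM, and the ER membrane J-domain protein Dnajb12 at 10.6 to 17.9 and 12.4 to 15.3 CPM. Dnajb14, a relative of Dnajb12, was at 2.08 to 8.66 and 5.58 to 7.29 CPM, lowest in heterozygous 3 and highest in heterozygous 5. By rebuilt level, 4 of the 12 were called (33.3%, against 17.2% of all genes): Dnajb11, Dnajc3, Dnajc16 and Hsp90b1. None of the 12 members assigned to the ER had an unadjusted p under 0.05 for genotype. These shares hold for this assignment only. Dnajc18, with an unadjusted p of 0.0438 for genotype by edgeR and called by rebuilt level, was placed outside the 12.

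Other ER chaperone and unfolded protein response genes were read from a list of 27, all tested. None was called by edgeR (0.0% of all genes were), and at an unadjusted p under 0.05 stood 4, all lower in deficient libraries (14.8%, against 9.13% of all genes lower and 16.6% in either direction), with a median log2 fold change of -0.10 over the list. Creld2, a protein induced by ER stress, was at 170.3 to 386 CPM in heterozygous and 92.9 to 147 CPM in deficient libraries, with no overlap. Pdia6, a protein disulfide isomerase, did not overlap either, at 398 to 844 and 310.1 to 369 CPM. Xbp1, a transcription factor of this response, was at 23.7 to 99.3 and 19.1 to 50.1 CPM. In heterozygous 3 Creld2 was at 386 CPM, Sdf2l1 at 155 CPM against 28.5 to 69.1 CPM in the other heterozygous libraries, and Pdia6 at 844 CPM, each the highest of its genotype. Atf4 was at 24.2 CPM in heterozygous 3, against 35.5 to 99.2 CPM in the other heterozygous libraries. The stress-induced Ddit3 was at 9.04 CPM there, close to a tie with heterozygous 1 and 2 at 9.103 and 9.204 CPM. Hyou1, the ER exchange factor for Hspa5, was at 39.4 CPM there, close to the library labelled heterozygous 4 at 40.7 CPM.

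**Figure D5:**
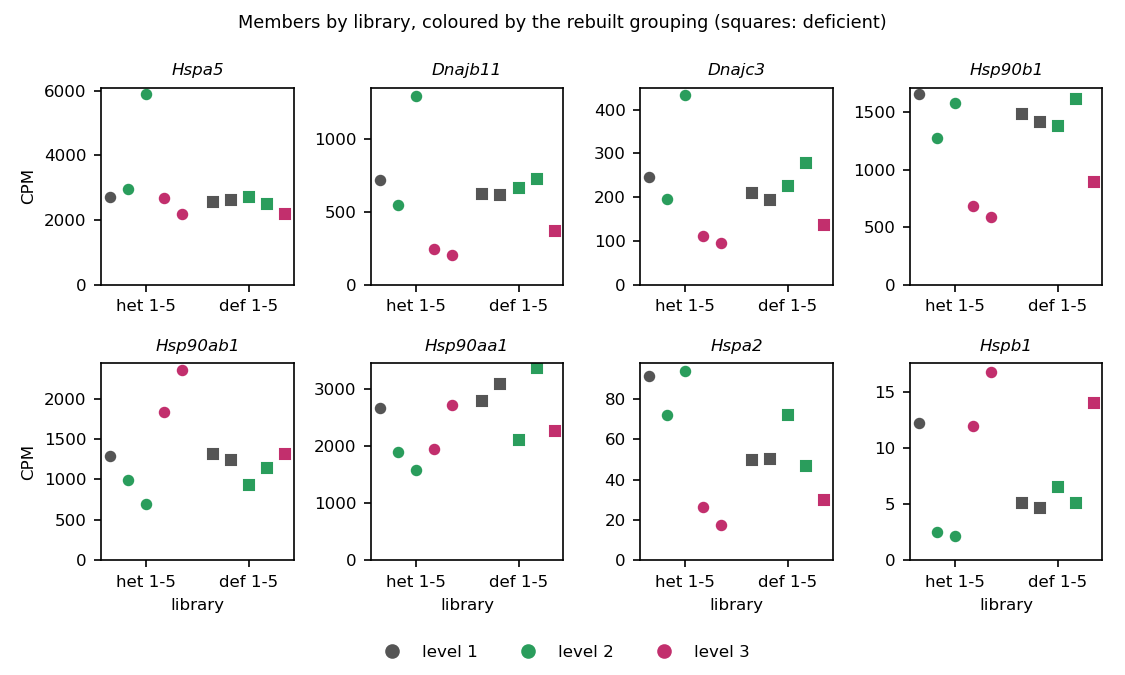
CPM of 8 members in each library (circles heterozygous, squares deficient, replicates 1 to 5 from left to right), coloured by level of the rebuilt grouping. The libraries of level 3 sit lowest for Dnajb11, Dnajc3, Hsp90b1 and Hspa2, and heterozygous 3 stands alone at the top for Hspa5, Dnajb11 and Dnajc3.

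The mitochondrial members are led by the HSP60 and HSP10 genes, Hspd1 and Hspe1, which lie head to head on chromosome 1 and share a promoter. The heat shock element, bound by HSF1, was searched as GAANNTTCNNGAA on both strands of the same windows. It was found in promoters of Hspd1, Hspe1 and Dnajb6 (4 of 76 member promoters, against 0.466% of all promoters). Among the stress-inducible members no exact match was found in Hspa1a, Hspa1b, Dnajb1, Hsph1 or Hspb1, and no promoter of Hsp90aa1 was covered. Only this exact pattern was searched, so an element with other letters or spacing would be missed. The shared element of Hspd1 and Hspe1 is printed because it is the same stretch, chr1:55088053-55088082, read on the minus strand for Hspd1 and on the plus strand for Hspe1. In it 2 matches overlap, 1 on each strand, and the capitals span both. That of Dnajb6 is chr5:29735844-29735872 on the plus strand, and its matching promoters hold these same bases. The 4 promoters thus stand for fewer than 4 separate sites. For Hspd1 and Dnajb6 the stretch lies before a RefSeq start but inside the annotated span of the gene.
Hspd1: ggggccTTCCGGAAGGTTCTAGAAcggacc
Hspe1: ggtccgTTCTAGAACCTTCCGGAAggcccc
Dnajb6: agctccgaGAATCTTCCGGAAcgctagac

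Although they share this stretch, the transcripts had different profiles. Hspd1 was at 777, 710.1, 1064, 665 and 820.1 CPM in heterozygous 1 to 5 and at 734, 684, 737, 859 and 639 CPM in deficient 1 to 5, with its highest level in heterozygous 3. Hspe1 was at 186, 109, 83.2, 143 and 279 CPM in heterozygous 1 to 5 and at 173, 166, 127, 212 and 153 CPM in deficient 1 to 5, with its lowest level in heterozygous 3 and its highest in heterozygous 5. The fold change of Hspd1 was -0.14 ± 0.19 (SE) (adjusted p 0.739 by edgeR). Exons of Hspd1 and Hspe1 overlap over 112 bases, 4.24% of Hspd1 and 7.598% of Hspe1. Dnajb6, a J-domain protein that suppresses aggregation, was at 173, 155, 232, 173 and 205 CPM in heterozygous 1 to 5 and at 181, 174, 163, 193 and 169 CPM in deficient 1 to 5, a narrow range in each genotype.

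Hspa9 (mortalin), the HSP70 that pulls proteins into the mitochondrion, was at 702, 636, 866, 453 and 449 CPM in heterozygous 1 to 5 and at 572, 519, 708, 627 and 376 CPM in deficient 1 to 5. Its highest library was heterozygous 3, and the libraries of level 3 were the lowest. The fold change was -0.15 ± 0.24 (SE) (adjusted p 0.789 by edgeR). Its J-domain partner Dnaja3 was at 290.5, 377, 551, 243 and 201 CPM in heterozygous 1 to 5 and at 277, 250.4, 377, 299 and 241 CPM in deficient 1 to 5, with heterozygous 3 highest as well. Dnajc19, of the import motor, was at 140.0 to 233 and 140.1 to 207 CPM, and its relative Dnajc15 at 143 to 211 and 141 to 197 CPM. Of the 8 mitochondrial members, 7 had a negative fold change (87.5%, against 51.1% of all genes), and only Dnajc11 had an unadjusted p under 0.05. Summed TPM of the 8 was 1496 ± 203 in heterozygous and 1134 ± 62.7 in deficient libraries (SD, n = 5). Of these, Dnajc11 alone gave 568 ± 122 and 344 ± 40.7 TPM, and it is the member whose TPM is far above its count per length.

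Of 20 other genes of mitochondrial protein folding and import, all tested, none was called by edgeR and 4 had an unadjusted p under 0.05, all lower (20% of the list, against 9.13% of all genes lower and 16.6% in either direction). The list's median log2 fold change was -0.23. Clpb, a disaggregase of the intermembrane space, was at 98.1 to 152 CPM in heterozygous and 72.1 to 90.05 CPM in deficient libraries, with no overlap. Tomm40, the pore of the outer membrane, was at 41.1 to 71.9 and 29.2 to 44.5 CPM. Trap1, the mitochondrial HSP90, which is no member by its symbol, was at 268 to 531 and 239 to 309.8 CPM.

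Of the members known from germ cells, Hspa2 and Hspa4l were called by rebuilt level and none by genotype. Hspa2, an HSP70 that male germ cells need in meiosis, was at 91.5, 72.3, 93.9, 26.6 and 17.3 CPM in heterozygous 1 to 5 and at 49.9, 50.05, 71.9, 46.6 and 29.8 CPM in deficient 1 to 5. The libraries of level 3 were the lowest, and heterozygous 1 and 3 the highest. The fold change was -0.28 ± 0.41 (SE) (adjusted p 0.762 by edgeR), and it turned positive in 3 of 27 alternative settings. By rebuilt level the adjusted p was 0.00694 by edgeR's F test. Hspa4l, an HSP110 gene strongly expressed in the testis, was at 264, 326, 358, 152 and 161 CPM in heterozygous 1 to 5 and at 292, 253, 340.1, 307 and 173 CPM in deficient 1 to 5. The libraries of level 3 were again the lowest, and the adjusted p by level was 0.00591 by edgeR's F test.

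Of the sperm-associated J-domain genes on that list, Dnajb3 was at 9.44, 10.6, 15.5, 15.6 and 19.97 CPM in heterozygous 1 to 5 and at 8.73, 11.1, 8.75, 11.6 and 19.1 CPM in deficient 1 to 5, highest in heterozygous 5 and deficient 5. Dnajb13, a protein of the sperm axoneme, was at 1.01 to 5.23 CPM in heterozygous and 1.14 to 3.25 CPM in deficient libraries. Hspa1l, the testis HSP70, was at 0.275 to 0.9297 and 0.361 to 0.736 CPM, but 71.9% of its exon bases overlap Gm10501 on the opposite strand. Dnajc5b had only 8 counts in all libraries together and was not tested. Dnajb13, Hspa1l and Dnajc5b were thus scarce. Dnajb3 was 19th of the 74 members by TPM (80.9) and 39th by count per length (35.3), a ratio of 2.29. Its rank too depends on the measure read.

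Across litter dates of the labels, no member passed either. With genotype in the model, edgeR's F test called 0 of 19244 genes (0.0%) and 0 of 66 members. At an unadjusted p under 0.05 stood 893 genes (4.64%) and 3 members (4.55%), Dnajb3, Dnajb4 and Dnajc16. Their p-values were 0.0236, 0.00602 and 0.0342, each with an adjusted p of 0.787. The share of members was close to that of all genes.

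Across the levels of the rebuilt grouping, a test added after seeing the data, 3317 genes (17.2%) and 14 members (21.2%) were called by edgeR. They were Dnaja3, Dnajb11, Dnajb4, Dnajc16, Dnajc18, Dnajc21, Dnajc3, Dnajc5g, Hsp90ab1, Hsp90b1, Hspa2, Hspa4l, Hspa9 and Hspb1. In 13 members (19.7%, against 11.7% of all genes) the 3 libraries of level 3 lay below the other 7, and in 4 members, Dnajb2, Dnajb3, Dnajc12 and Dnajc30, they lay above them (6.06%, against 8.69%). These are the libraries in which the erythroid markers summed to 725, 2091 and 1612 CPM, against 69.2 to 231 CPM in the others. They had the 3 highest shares of mitochondrially encoded counts, 3.04%, 3.31% and 3.34% against 0.853% to 2.56%, and the 3 highest sums of immediate early genes, 1136, 1049 and 852 CPM against 500.2 to 841 CPM. Germ cell genes differed too, in both directions, with 5 of 12 tested called by level (41.7%, against 17.2% of all genes). The meiotic entry gene Stra8 stood at 56.3, 10.3 and 156 CPM in level 3 and at 221 to 964.9 CPM elsewhere. The oocyte transcription factor Lhx8 went the other way, at 85.7, 213 and 19.9 CPM in level 3 and at 7.12 to 14.4 CPM elsewhere. Ddx4 and Dazl were not called, with an adjusted p of 0.0819 and 0.302 by edgeR's F test. The part of cell makeup, RNA quality or stage in the members' levels was not tested.

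Members were more variable among heterozygous than among deficient libraries, as were most genes. The SD of log2 CPM was wider among heterozygous libraries in 57 of 66 members (86.4%, against 76.3% of all genes), with medians of 0.467 and 0.283. Heterozygous 3 was the highest library for 21 members (31.8%, against 19.0% of all genes), among them Hspa5, Hspa8, Hspa9, Hspd1, Hspbp1 and Dnajc11. It was the lowest for 12 (18.2%, against 20.6%), among them Hspa1a, Hspa1b, Hsp90aa1, Hsp90ab1 and Hspb1. This library had 0.853% of its counts on mitochondrially encoded genes, the lowest share of the 10, which ran up to 3.34%. By summed TPM, all members came to 7191 ± 616 in heterozygous and 6407 ± 150.1 in deficient libraries (SD, n = 5), and the HSP70 genes to 1677 ± 421 and 1281 ± 65.5. The ranges of these sums overlapped, as deficient 4 exceeded heterozygous 1 in both.

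The partners of the cytosolic chaperones were read from a list of 31 heat shock factors and HSP70 and HSP90 cofactors, of which 30 were tested. None was called by edgeR, and 5 of the 30 had an unadjusted p under 0.05 (a share close to the 16.6% of all genes), 2 higher and 3 lower, with a median log2 fold change of -0.18. Bag6, which escorts membrane proteins and misfolded clients, was at 23.04 to 30.5 CPM in heterozygous and 31.1 to 66.3 CPM in deficient libraries, with no overlap. Fkbp5, an HSP90 cochaperone of steroid receptors, was at 21.9 to 51.7 and 36.5 to 98.7 CPM, and Tomm34, which links both chaperones to import, was at 128 to 182 and 104 to 113 CPM, without overlap. The heat shock factor Hsf1 was at 65.9 to 121 and 61.7 to 76.1 CPM, and Hsf2 at 15.2 to 33.7 and 19.6 to 25.6 CPM. In the TRiC chaperonin and prefoldin, which fold actin and tubulin, 0 of 17 genes had an unadjusted p under 0.05 (16.6% of all genes did), and the median was -0.002. Cct2, a TRiC subunit, was at 343 to 501 and 436 to 595 CPM.

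The small heat shock proteins were mostly scarce. Hspb2, Hspb3, Hspb7 and Hspb9 did not reach the filter, and Hspb8, a partner of Bag3 in selective autophagy, was at 0.0432 to 1.39 CPM in heterozygous and 0.123 to 1.495 CPM in deficient libraries. Hspb6 was at 19.3 ± 1.72 CPM (SD, n = 5) and 20.5 ± 3.85 CPM (SD, n = 5), an even level over the 10 libraries. Dnajb8, Dnajc22, Dnajc5b and Dnajc6 were the other untested members, and no untested member exceeded 0.951 CPM in any library. Among the ribosomal members, Dnajc2 was at 199.8 to 305 and 200.5 to 276 CPM, and the ranges of the genotypes overlapped.

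Some of these levels rest on reads that more than 1 gene can claim. Beside Dnaja4 and Hspa1l, exon bases shared with another gene came to 26.3% in Dnajc30 (Bud23), 19.0% in Hspa1a (Gm20481) and 16.99% in Dnajc14 (Ormdl2). Among 15 processed pseudogenes named after members, Dnajc19-ps had 4371 and Hspd1-ps3 4358 counts over all libraries. Of the other motifs searched in the same 250 bases, CCAAT, which the ER element contains, was found in 28 of 76 member promoters, against 33.8% of all, and TATAAA in 4 of 76, against 12.4%. A match is a description of the letters in the window, not a bound site, and a missing match does not show that an element is absent.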

How the data were processed

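RNA of 10 libraries was sequenced. Reads were trimmed (Trim Galore 0.5.0), aligned to GRCm38 (HISAT2 2.1.0) and counted per gene by the authors as whole-number counts (featureCounts, Subread 1.6.2), according to the submitters' processing notes. The authors deposited TPM from StringTie 1.3.3b, per the same notes. Another deposited table, from DESeq2, lists the log2 fold change with its SE, the Wald statistic (a score), the p-value, raw and adjusted, and a mean signal (the average normalized count), per the file headers. No source used here states strand or multi-mapping settings. Of 55536 genes, 382 had no symbol, with 0.0632% to 0.0945% of each library's counts.

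Counts were tested with edgeR 4.0.16 (R 4.3.3) by the quasi-likelihood test, with TMM scaling, edgeR's expression filter and Benjamini-Hochberg adjustment over all 19244 genes left, at a threshold of 0.05. CPM uses TMM-scaled library sizes, and the SE is the fold change over the square root of F. Litter date was tested by an F test with genotype in the model. Exon lengths came from the GENCODE annotation. DESeq2 1.42.0 and limma 3.58.1 served as alternatives. Refitted with the rebuilt grouping, DESeq2 differed from the deposited log2 fold changes by at most 0.00555, and both held 1172 calls.

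The members, lists and alternatives were chosen with earlier results of these data known. Families and compartments were assigned from textbook knowledge after the data were seen. Genes named are the 12 members with the smallest genotype p, the 12 with the highest TPM, fixed stress-inducible and germ cell members, members without overlap, the 5 most variable among heterozygous libraries, the 8 with the smallest litter p, and up to 3 from each other list. Other members named by range or by a count were chosen after their values were seen. On simulated counts, 9.57% of 94 genes changed 2-fold and 66% of 100 changed 4-fold were recovered for genotype, among 18739 genes, and for litter date 54.3% of 199 genes changed 4-fold, among 18750 genes. The number of libraries limits the precision, and promoters are RefSeq's (GRCm38.p6). Of the tested members, 1 is counted but not reported here.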

Additional observations from a re-analysis of the deposited data

Results flagged for a closer look

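In 6 of 80 groups of 5 libraries examined (2 genotypes of 40 named members), 1 library stood apart from the rest by more than Dixon's critical value of 0.71 for its gap over the range. For independent groups not chosen by their values, chance flags about 1 in 20. Some of the 40 members were named for their spread or their p-values, and all share the same libraries. That rate is therefore no baseline for the 6. Heterozygous 3 was high for the ER chaperone Hspa5, at 5912 CPM against 2179 to 2957 CPM in the other heterozygous libraries, and for the cytosolic Hspa8, at 2301 CPM against 1267 to 1529 CPM. Deficient 5 was high in the remaining 4. It was at 14.03 CPM for the small heat shock protein Hspb1 (4.66 to 6.56 CPM in the other deficient libraries) and at 19.08 CPM for Dnajb3 (8.73 to 11.6 CPM). Mitochondrial Dnajc30 was at 33.81 CPM there (16.8 to 21.4 CPM), and Dnajc28 at 6.02 CPM (3.58 to 4.14 CPM).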

How the results depend on the processing

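Genotype calls by edgeR depended on the setting. Over all genes the count went from 0 to 251 with no low-count filter, 643 with DESeq2, 510 with limma voom quality weights and 104 with the rebuilt grouping in the model, and over the members it went from 0 to 1 with DESeq2 and 3 with voom quality weights. With the replicate block it was 1 gene and 0 members. Deviations of same-numbered libraries correlated at 0.169, 0.035, 0.118, -0.262 and 0.593, and only for replicate 5 was the same number the best match. These values do not establish a pairing by number and cannot exclude one. Leaving out each library gave 0 to 606 genes and 0 to 2 members, both highest without heterozygous 1, and 1 gene without heterozygous 2. For litter date the count over genes went from 0 to 554 with no low-count filter, 13 with DESeq2's likelihood ratio test and 3317 with the rebuilt grouping in its place, and over members to 1 (Dnajb4) and 14 with the first and the last. Leaving out each library gave 0 to 1 gene for litter date, the 1 without the library labelled heterozygous 4.

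Of 40 named members tested, 26 kept the sign of their genotype fold change over 27 settings and 14 did not. Of the fold changes printed, Hsp90ab1 turned to 0.22 and Hsp90b1 to -0.030 without rebuilt level 3. Hspa2 turned to 0.15 with voom quality weights, 0.11 with litter date in the model and 0.11 without the first litter date. Hspb1 turned to 0.10 with the rebuilt grouping in the model and 0.052 without its level 1, and Hsph1 to 0.054 without the third litter date. The cause was not tested. Rebuilt-grouping alternatives were chosen after seeing the data. Genes at a few counts per library allow no finer statement.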

Other observations

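By rebuilt level, 5 of the 27 other ER chaperone and unfolded protein response genes were called (18.5%, against 17.2% of all genes), in both directions. Pdia4, a disulfide isomerase of the ER, was at 651, 552, 905, 306 and 236 CPM in heterozygous 1 to 5 and at 493, 393, 609, 539 and 258 CPM in deficient 1 to 5. P4hb, the main isomerase, was at 678, 741, 746, 429.9 and 353 CPM in heterozygous 1 to 5 and at 584, 527, 731, 693 and 419.6 CPM in deficient 1 to 5. In both genes all libraries of level 3 were beneath the other 7, and the adjusted p by level was 0.00642 and 0.0176 by edgeR's F test. Other isomerases did not share this, with 0.513 for Pdia3 and 0.881 for Pdia6, and Calr and Canx gave 0.970 and 0.164. The transcription factor Atf4 was higher in all libraries of level 3 than in the other 7, with a mean of 81.5 against 35.6 CPM and an adjusted p of 0.00907 by edgeR's F test, and Xbp1 had means of 72.5 and 35.5 CPM and an adjusted p of 0.0729.

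Hsf2bp, a meiotic recombination factor named for its binding to the heat shock factor HSF2, was at 474, 338, 529, 207 and 173 CPM in heterozygous 1 to 5 and at 348, 355, 378, 441 and 251 CPM in deficient 1 to 5. The libraries of level 3 were again the lowest, with an adjusted p of 0.0181 by level by edgeR's F test and of 0.958 for genotype by edgeR.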
